A study of Mus musculus with 38 samples.

Results

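The mouse genes for the nuclear-encoded subunits of the respiratory chain and the ATP synthase were described in 3 preparations of intestinal epithelium, each with and without a dose of active vitamin D. The genes were taken by symbol: those starting with Nduf, Sdh, Uqcr, Atp5 or Cox4 to Cox8, without pseudogenes marked -ps, and with a mean of 1 or more FPKM, a level scaled by transcript length and library size, in all 3 tissues. Of 21441 genes in the tables, 92 matched by symbol and 86 of those passed the minimum. They comprised 36 subunits of complex I, 4 of complex II, 8 of complex III, 13 of complex IV and 15 of the ATP synthase (complex V). A further 6 encode assembly factors (Ndufaf1, Ndufaf2, Ndufaf3, Ndufaf4, Sdhaf1 and Sdhaf2). The remaining 4 share only the prefix or act beside the complexes (Atp5s, Atp5sl, Cox4nb and Cox7a2l). Ndufa4 was counted with complex IV, to which its product is now assigned.

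All mice were wild type C57BL6/J, vitamin D deficient, of both sexes pooled, and received either 10 ng/g body weight of 1,25(OH)2D3, the hormonally active form of vitamin D, or 0.1 ml of a propylene glycol and ethanol vehicle. They were killed 4 h after this intraperitoneal injection. The labels give the age as 10 to 13.3 weeks in one field and as 12 to 14 weeks at injection in another. Villi and crypts were released from the proximal small intestine with EDTA and parted on a filter, whereas colon epithelium was taken by scraping, so tissue and way of preparation cannot be told apart. Vehicle and vitamin D groups held 6 and 7 libraries in villi, 6 and 6 in crypts, and 6 and 7 in colon, 38 in all. How many mice went into a library is not given in the labels, so p-values measure the spread between these libraries. Whether villi, crypts and colon came from the same mice was not established. Errors and tests between tissues treat all libraries as independent.

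The respiratory chain sits in the inner mitochondrial membrane. Complex I takes electrons from NADH and complex II, which is also the succinate dehydrogenase of the tricarboxylic acid cycle, takes them from succinate. Complex III passes them by way of cytochrome c to complex IV, where oxygen is reduced, and the ATP synthase uses the resulting proton gradient to make ATP. Complexes I, III, IV and V combine nuclear-encoded subunits with subunits encoded in mitochondrial DNA, while complex II is encoded wholly in the nucleus. Absorptive enterocytes and colonocytes use this ATP for ion and nutrient transport, and colonocytes are known to oxidise butyrate. None of the 26 gene symbols listed for mitochondrial DNA-encoded subunits was among the rows of the tables, so only the nuclear part is described.

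Library depth, read from the spacing of low values, lay between 13.8 M and 17.5 M reads, with a median of 15.8 M. Defining markers fitted the labelled tissues: the 14 enterocyte markers summed to 40785 to 67637 FPKM in villi and 713 to 4059 FPKM in colon, and the Paneth cell markers were highest in crypts. Crypt libraries were mixed to differing degrees, with summed enterocyte markers from 7268 FPKM in vehicle replicate 4 to 55287 FPKM in vehicle replicate 6. In colon, 6 smooth muscle markers summed to 3276 and 12074 FPKM in vitamin D replicates 1 and 2, against 18.6 to 505 FPKM in the other colon libraries. These libraries are named beside the results they touch.

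Most of the 86 genes were far above the typical gene in level. Their median FPKM was 255 in villi, 301 in crypts and 245 in colon, where the median over the 9341 genes that reached a mean of 1 FPKM in all tissues was 10.8, 15.7 and 15.6. Group medians of their share of the summed FPKM lay between 5.16% and 5.52%, and single libraries between 4.75% and 5.98%. The level varied widely within each complex except complex II, whose means ran from 286 to 435 FPKM in villi. Some members, such as Ndufab1 (a mean of 8.17 FPKM in villi) and Atp5j (8.77), lay below the median of all genes in villi. In complex I, mean FPKM ran from 6.04 in villi, 9.03 in crypts and 7.89 in colon for Ndufs8, an iron-sulphur subunit, to 661, 633 and 622 for Ndufa3, a small accessory subunit. In complex IV the most abundant transcript differed by tissue: Cox6a1 with a mean of 1571 FPKM in villi, Cox6b1 with 1501 in crypts and Cox8a with 1848 in colon. Atp5b, the catalytic beta subunit of the ATP synthase, was the most abundant member of complex V, at a mean of 1602 FPKM in villi, 1843 in crypts and 1155 in colon.

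The 6 symbols below the minimum were largely muscle, lung or testis isoforms of complex IV subunits. Cox4i2, Cox6a2, Cox7b2, Cox8c and Ndufa4l2 had means under 0.5 FPKM in every tissue. Cox8b, the heart and skeletal muscle isoform of subunit 8, averaged 0.0255 FPKM in villi and 3.49 in colon, where its highest values were 11.9 and 18.3 FPKM in vitamin D replicates 1 and 2, the libraries with the most smooth muscle RNA. The members nearest to the minimum were Ndufaf1, Atp5s, Cox4nb and Cox6b2, with lowest tissue means, all in villi, of 2.65, 2.73, 2.85 and 3.54 FPKM.

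Promoter sequence was available for 74 of the 86 genes in RefSeq (build GRCm38.p6), 71 by symbol and 3 by an older symbol. Those without a matched entry included Atp5a1, Cox4i1, Cox4nb, Cox6c, Ndufa2, Ndufb9, Ndufs1, Sdhc, Uqcrb, Uqcrc2 and Uqcrq. The stretches below are the 250 bases upstream of the annotated start, 5′ to 3′ in the direction of transcription, for 5 genes on which the results turn: Sdhd, Atp5g3 and Uqcrc1, which were lower in colon than in crypts, Cox8a, which was not, and Sdhaf1, which rose with vitamin D in crypts. Sdhd lies at chr9:50603850-50604099 (minus strand), Atp5g3 at chr2:73911327-73911576 (minus strand), Uqcrc1 at chr9:108936398-108936647 (plus strand), Cox8a at chr19:7217617-7217866 (minus strand) and Sdhaf1 at chr7:30322376-30322625 (minus strand). Capitals mark matches to GCGC, any 2 bases and GCGC (bound by NRF1, a regulator of respiratory genes) or TCAAGGTCA (bound by estrogen-related receptors) on either strand. The Sdhd stretch holds the first of these and the Atp5g3 stretch holds the second.
Sdhd: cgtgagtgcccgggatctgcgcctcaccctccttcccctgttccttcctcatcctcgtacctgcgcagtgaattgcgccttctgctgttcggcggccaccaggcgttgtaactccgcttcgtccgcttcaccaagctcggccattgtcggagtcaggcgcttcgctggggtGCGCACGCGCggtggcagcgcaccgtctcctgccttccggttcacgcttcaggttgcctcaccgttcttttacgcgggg
Atp5g3: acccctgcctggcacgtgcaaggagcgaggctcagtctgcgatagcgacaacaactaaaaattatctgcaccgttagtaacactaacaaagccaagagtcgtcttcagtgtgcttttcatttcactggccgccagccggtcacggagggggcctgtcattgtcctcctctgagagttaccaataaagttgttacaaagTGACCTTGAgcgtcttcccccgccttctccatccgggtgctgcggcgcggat
Uqcrc1: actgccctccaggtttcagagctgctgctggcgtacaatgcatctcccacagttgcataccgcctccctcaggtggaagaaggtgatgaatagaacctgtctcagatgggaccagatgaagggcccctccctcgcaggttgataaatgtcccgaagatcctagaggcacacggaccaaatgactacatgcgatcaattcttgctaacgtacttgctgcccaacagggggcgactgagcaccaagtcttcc
Cox8a: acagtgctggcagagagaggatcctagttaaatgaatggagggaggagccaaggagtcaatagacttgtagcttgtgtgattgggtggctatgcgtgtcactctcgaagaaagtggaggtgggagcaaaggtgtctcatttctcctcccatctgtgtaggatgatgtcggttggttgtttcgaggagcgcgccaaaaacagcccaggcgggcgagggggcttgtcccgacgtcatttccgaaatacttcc
Sdhaf1: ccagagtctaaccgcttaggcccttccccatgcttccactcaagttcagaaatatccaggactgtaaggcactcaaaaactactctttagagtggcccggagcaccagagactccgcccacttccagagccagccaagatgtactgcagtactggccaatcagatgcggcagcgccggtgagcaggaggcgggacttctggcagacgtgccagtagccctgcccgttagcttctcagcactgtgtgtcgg
Over windows of 300 bases, from 250 upstream to 50 downstream of the start, 20 of the 74 promoters (27.0%) held GCGC, any 2 bases and GCGC, against 16.2% of 7454 promoters of genes expressed in all tissues and 7.00% of all 27025 in the table. The letters CCGGAAGT, read by ETS family factors, were in 5 (6.76%), against 10.5% and 4.31%. TCAAGGTCA was in 2 (2.70%), Atp5g3 and Sdhd, against 0.309% and 0.466%; the Sdhd match is not in the stretch shown. The windows of Uqcrc1 (2 matches) and Atp5g3 (1 match) also held the first motif and that of Cox8a held CCGGAAGT (2 matches), in each case outside the stretch shown. A repeat of GGTCA parted by any 3 bases was in 0 of 74, against 0.107% and 0.0703%. This is not the spacing of the direct repeat bound by the vitamin D receptor, which was not searched for. A match is a description of the letters in these windows and does not show a bound site.

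Tissues were compared first, in the vehicle libraries. Because the tables of the 3 tissues were normalised separately, each library was centred on the median log2(FPKM + 0.5) of the 9341 shared genes, and differences between tissues are given as descriptions on this centred scale. They come with the count of genes whose libraries do not overlap. The median over the 86 genes was 0.28 lower in colon than in crypts, where all 9341 genes had a median difference of -0.02. The libraries of 21 members lay wholly below in colon and those of 0 wholly above, beside 15.8% and 16% of all genes. The median was -0.12 in the vitamin D libraries, with 30 of 86 members positive, -0.12 in the plain-named libraries (replicates 1 to 4) and -0.19 without vehicle crypt replicates 5 and 6. Against villi, the median was -0.52 in colon (all genes 0.02), with 50 members wholly below and 0 above (22% and 18.8% of all genes). The difference between crypts and villi was smaller, with a median of -0.32 (all genes -0.10), 7 members wholly below and 6 above (19% and 18.5% of all genes). In bulk samples, fewer cells of a type and less RNA per cell cannot be told apart.

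**Figure D1:**
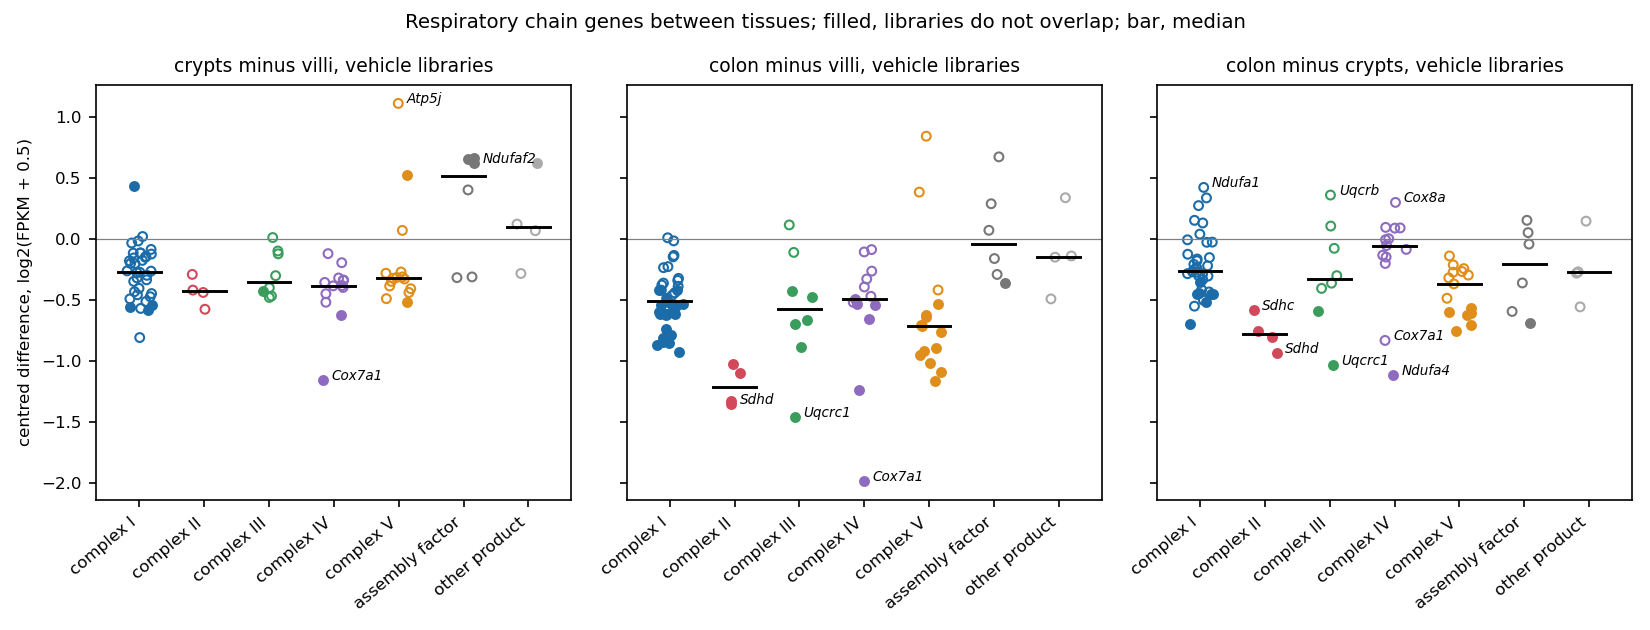
Difference between tissues for each of the 86 genes in the vehicle libraries (n = 6 per tissue), as centred log2(FPKM + 0.5) on the vertical axis, with genes grouped by complex on the horizontal axis. Filled points have libraries that do not overlap and bars are medians; the 4 complex II genes lie below 0 in all panels, whereas complex IV straddles 0 between colon and crypts.

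The sign of the comparison of colon with crypts depended little on scaling: the centres of these libraries differed by 0.01, and without any centring the median was -0.29. Villus libraries were centred 0.54 below crypts and 0.53 below colon, so for crypts minus villi the uncentred median was 0.23 and for colon minus villi 0.01. Across the scalings tried, 68 members were lower and 15 higher in colon than in crypts in every scaling, and 3 had a sign that depended on it. Between crypts and villi the sign of 65 members depended on the scaling, with 13 higher and 8 lower in all of them. Between colon and villi 42 were lower, 8 were higher and 36 depended. Differences within a library, given below as ratios between members, do not depend on this choice.

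The authors' deposited tables of vitamin D treated libraries give tests between tissues in libraries other than the vehicle ones, although the 3 comparisons share libraries among themselves. At an adjusted p of 0.05 these deposited tables call 35 members lower and 4 higher in colon than in crypts, where 23.9% and 32.6% of all genes tested were called. For colon against villi the authors' deposited table calls 65 lower and 4 higher (27% and 37.8% of all genes). For crypts against villi it calls 46 lower and 8 higher (30.4% and 31.6% of all genes). Most of these differences were below 2-fold in the authors' deposited tables: 1, 12 and 5 of the called members differed at least 2-fold between colon and crypts, colon and villi, and crypts and villi.

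Complex II stood lowest in colon among the complexes. Its 4 subunits had a median centred difference of -0.78 between colon and crypts and -1.21 between colon and villi. The libraries of all 4 lay wholly below in both comparisons, beside 15.8% and 22% of all genes. Sdha, the flavoprotein that oxidises succinate, had 264 to 308 FPKM in vehicle villi (median 280), 288 to 410 in crypts (338) and 179 to 216 in colon (189). Every colon library was below every villus and crypt library. Its centred difference between colon and crypts was -0.80 ± 0.07 (SE, n = 6 and 6), and the authors' deposited table gives -0.79 with an adjusted p of 9.51e-26 for vitamin D libraries. Sdhd, a membrane anchor that binds ubiquinone, ranged over 174 to 219 FPKM in colon (median 186), 301 to 527 in crypts (347) and 304 to 392 in villi (332), again without overlap of colon with the others. The difference from crypts was -0.94 ± 0.12, and -0.80 with an adjusted p of 4.05e-11 in the authors' deposited table. Sdhb, the iron-sulphur subunit, differed by -0.76 ± 0.13 and Sdhc, the other membrane anchor, by -0.59 ± 0.13. In the authors' deposited table their differences were -0.66 (adjusted p 3.45e-07) and -0.49 (adjusted p 0.000337).

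**Figure D2:**
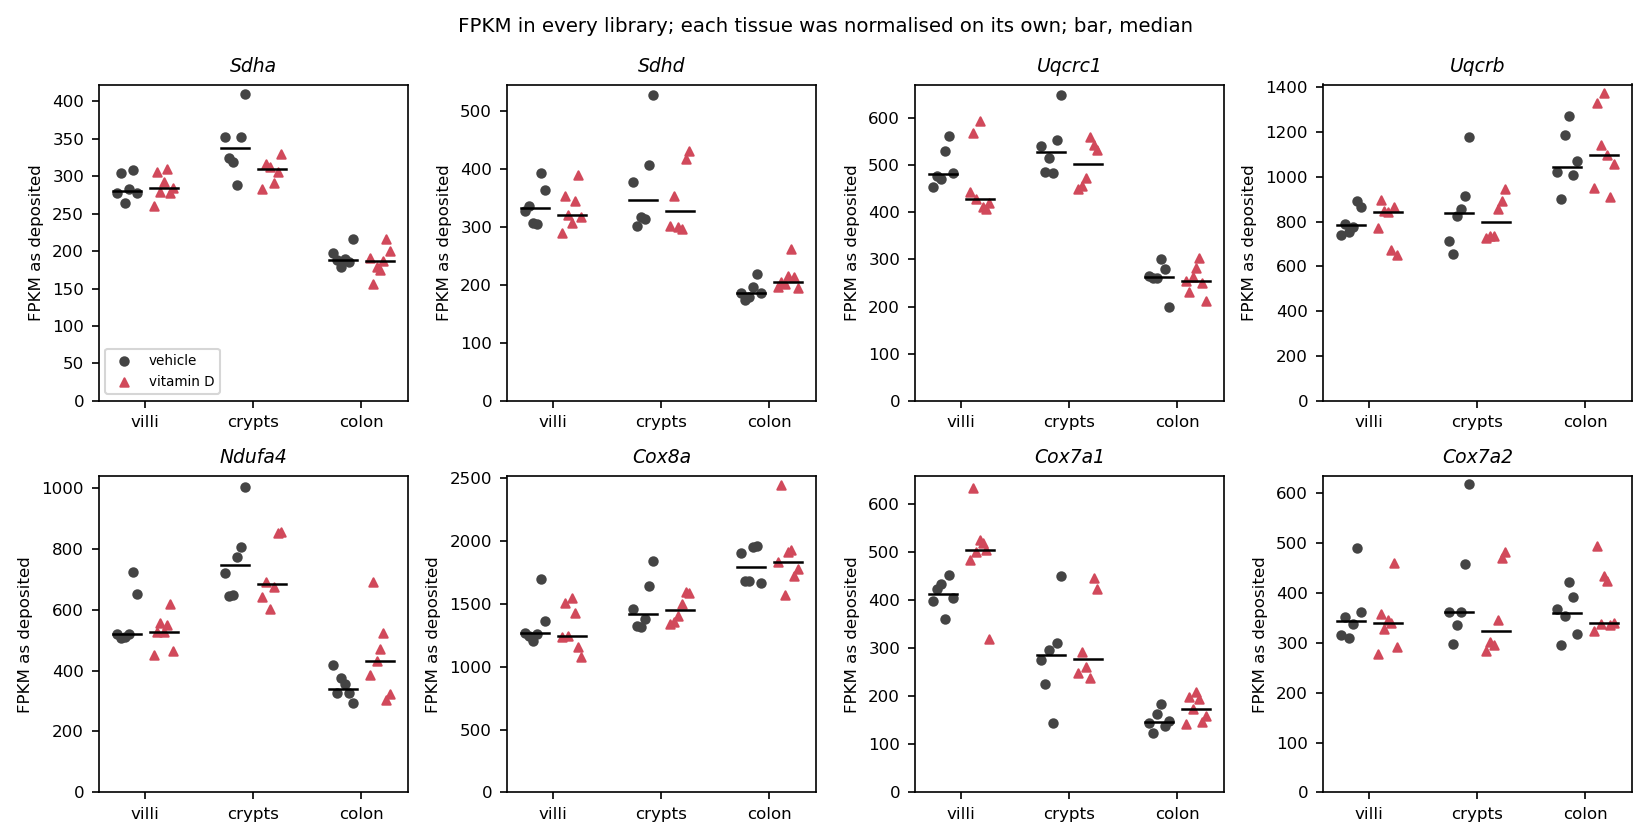
FPKM as deposited (vertical axes, from 0) in each of the 38 libraries for 8 genes, by tissue, with vehicle libraries as circles and vitamin D libraries as triangles; bars are group medians and each tissue was normalised on its own. Sdha, Sdhd and Uqcrc1 are lower in every colon library than in any crypt or villus library. The medians of Uqcrb and Cox8a are highest in colon only as deposited. On the centred scale vehicle colon differed from villi by -0.11 for Uqcrb and -0.09 for Cox8a, and these signs depended on the scaling.

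Complex IV behaved differently from complex II in the same libraries. Its 13 members had a median difference of only -0.06 between colon and crypts, which became 0.11 in the vitamin D libraries. Cox8a, a small membrane subunit, had 1667 to 1958 FPKM in vehicle colon (median 1794), 1313 to 1841 in crypts (1416) and 1200 to 1694 in villi (1265). Its difference between colon and crypts was 0.30 ± 0.08, with overlapping libraries, and 0.29 with an adjusted p of 0.00801 in the authors' deposited table. Cox4i1, the ubiquitous isoform of subunit 4, differed by 0.09 ± 0.13, and the authors' deposited table gives 0.19 with an adjusted p of 0.218. Ndufa4 and Cox7a1 were the lowest of the complex in this comparison. Ndufa4, recognised late as a complex IV subunit, ranged over 294 to 419 FPKM in vehicle colon (median 340), 643 to 1003 in crypts (747) and 507 to 723 in villi (520). Of all 86 members it had the lowest centred difference between colon and crypts, at -1.11 ± 0.12, and -0.76 with an adjusted p of 0.000119 in the authors' deposited table.

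The balance between complexes II and IV shows the contrast within single libraries. The mean log2(FPKM + 0.5) of complex II minus that of complex IV was -0.73 to -0.40 in vehicle villi (median -0.46) and -0.55 to -0.47 in crypts (-0.53). In colon it was -1.24 to -1.03 (median -1.14), below all libraries of the other tissues. The vitamin D libraries had medians of -0.56, -0.57 and -1.14 in villi, crypts and colon. The lowest of all, -1.58, was colon vitamin D replicate 2, the library with the most smooth muscle RNA, and the highest vitamin D colon library, at -0.94, was still below the lowest villus or crypt library. The part of non-epithelial RNA in this balance was not tested.

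Within complex III the members split. Uqcrc1, a core protein of the matrix side, had 200 to 302 FPKM in vehicle colon (median 263), 483 to 649 in crypts (528) and 453 to 561 in villi (481), with colon below both. The centred difference from crypts was -1.03 ± 0.10, and -1.04 with an adjusted p of 5.04e-27 in the authors' deposited table. Its partner core protein Uqcrc2 differed by -0.60 ± 0.06, and by -0.55 with an adjusted p of 2.94e-13 in the authors' deposited table. The smaller subunits were spread to both sides of 0: Uqcrq differed by -0.36, Uqcr11 by -0.30 and Uqcrh by -0.08, while Uqcrb and Uqcr10 were on the positive side. Uqcrb, which binds ubiquinone, had 899 to 1270 FPKM in colon (median 1046) and 657 to 1178 in crypts (840), a difference of 0.36 ± 0.14 with overlapping libraries. The authors' deposited table gives 0.39 with an adjusted p of 0.00298. Uqcr10, a small membrane subunit, differed by 0.10 ± 0.13 between colon and crypts.

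The log2 ratio of Uqcrc1 to Uqcr10 within a library was 0.32 to 0.72 in vehicle villi (median 0.49), -0.22 to 0.28 in crypts (0.04) and -1.27 to -0.82 in colon (-1.08). The 3 tissues did not overlap in this ratio. As a plain ratio the median was 1.03 in crypts and 0.472 in colon. In the vitamin D libraries the medians were 0.53, 0.12 and -1.22, and villi and crypts overlapped. The ratio of Uqcrc1 to Uqcrc2 was also lower in crypts than in villi and lowest in colon, with vehicle medians of 0.86, 0.57 and 0.17 on the log2 scale.

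**Figure D3:**
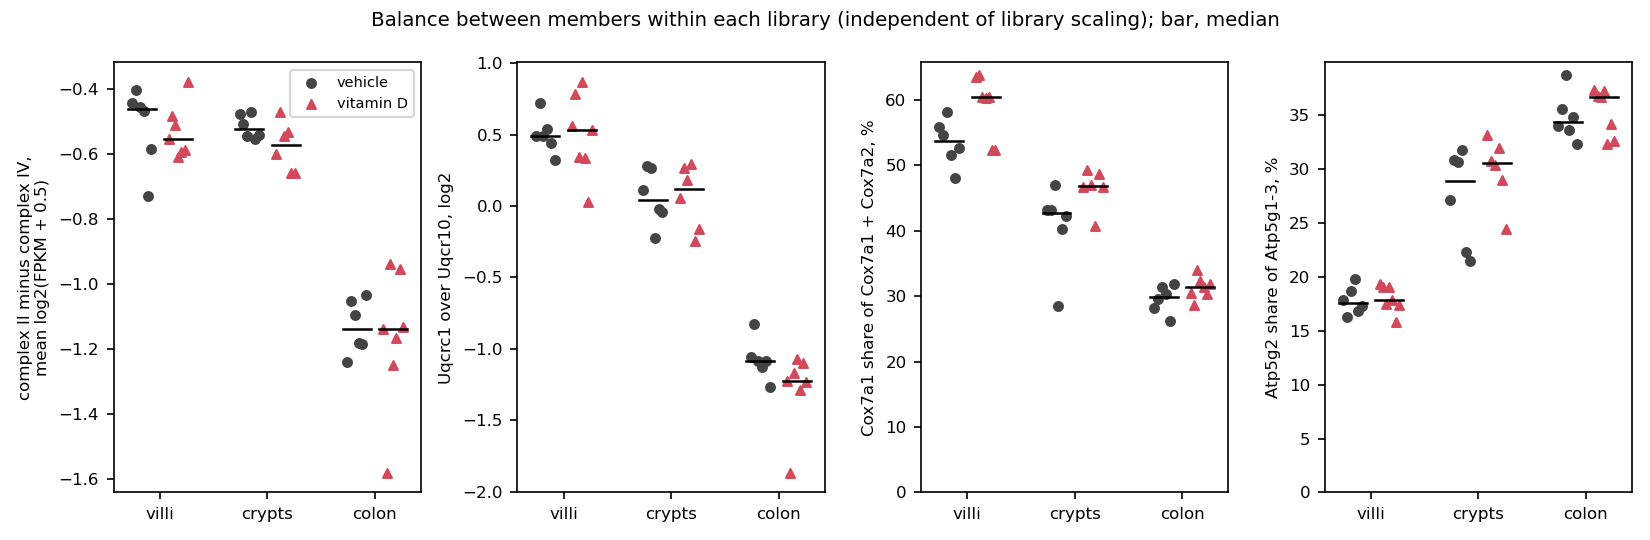
Ratios between members within each library, by tissue, with vehicle libraries as circles, vitamin D libraries as triangles and bars at group medians. From left, the panels show complex II minus complex IV (log2), Uqcrc1 over Uqcr10 (log2), the Cox7a1 percentage of Cox7a1 plus Cox7a2, and the Atp5g2 percentage of Atp5g1 to Atp5g3; all colon libraries lie below all villus libraries in the first 3 panels and above them in the last.

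In complex I, the largest complex, the 36 members had a median of -0.27 between colon and crypts, and 7 of the 36 did not overlap, all lower in colon, a share near the 15.8% of all genes. The 7 core subunits, which carry the flavin, the iron-sulphur clusters and the quinone site, had a median of -0.33 and the 29 accessory subunits -0.24. Ndufv1, which binds NADH, and Ndufs1, which holds iron-sulphur clusters, differed by -0.52 ± 0.10 and -0.45 ± 0.06, and in the authors' deposited table by -0.50 (adjusted p 1.98e-07) and -0.42 (adjusted p 9.58e-11). Accessory subunits included the members that leaned the other way. Ndufa1, a single-pass membrane subunit, had 194 to 251 FPKM in vehicle colon (median 233) and 117 to 273 in crypts (156), a difference of 0.42 ± 0.19 with overlap. The authors' deposited table gives 0.47 with an adjusted p of 0.0208 for it, and 0.40 with an adjusted p of 0.00172 for Ndufa6, whose vehicle difference was 0.33 ± 0.10.

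Among the 15 genes of the ATP synthase all 15 had a negative difference between colon and crypts, with a median of -0.37. The libraries of 6 did not overlap, beside 15.8% of all genes wholly lower in colon. The 5 subunits of the catalytic F1 head had a median of -0.61 and the 7 of the stalks and the membrane part -0.32. Atp5b had 1051 to 1331 FPKM in vehicle colon (median 1136), 1671 to 2346 in crypts (1848) and 1530 to 1750 in villi (1602). Colon lay below both, with a difference from crypts of -0.70 ± 0.08, and -0.70 with an adjusted p of 2.28e-19 in the authors' deposited table. Atp5a1, the alpha subunit, differed by -0.61 ± 0.06. Set against Cox8a in the same library, Atp5b stood at a median log2 ratio of 0.32 in vehicle villi, 0.37 in crypts and -0.61 in colon.

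Genes for isoforms of 1 subunit differed in their balance between tissues. Atp5g1, Atp5g2 and Atp5g3 encode the same mature subunit c, the proton-carrying ring of the ATP synthase, behind different import peptides. Atp5g2 had 228 to 303 FPKM in vehicle villi (median 264), 513 to 613 in crypts (527) and 360 to 547 in colon (513). It supplied 16.3% to 19.8% of the FPKM of the 3 genes in vehicle villi (median 17.6%), 21.5% to 31.7% in crypts (28.9%) and 32.3% to 38.7% in colon (34.4%), with no overlap between the tissues in these vehicle libraries. The lowest crypt shares were those of vehicle replicates 5 and 6, the crypt libraries with the most enterocyte RNA. In the vitamin D libraries crypts (24.4% to 33.1%) and colon (32.3% to 37.3%) overlapped, and the part of enterocyte RNA was not tested. Atp5g3 made up the larger part in every tissue, with medians of 60.0%, 46.3% and 39.3%. Atp5g1 varied least, at 22.3%, 24.7% and 25.5%. Between crypts and villi Atp5g2 was higher by 0.52 ± 0.09 on the centred scale, and the authors' deposited table gives 0.71 with an adjusted p of 4.06e-16.

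Cox7a1 and Cox7a2 encode the heart and muscle type and the liver type of complex IV subunit 7a. Cox7a1 had 359 to 452 FPKM in vehicle villi (median 413), 143 to 450 in crypts (286) and 124 to 183 in colon (146). Villi lay above all colon libraries, while 1 crypt library, replicate 6, reached the villus range in deposited FPKM. That library was centred at 4.04 and vehicle villi at no more than 3.50, so on the centred scale it lay below all of them. Among all members it had the lowest centred difference in both comparisons with villi, at -1.16 ± 0.22 for crypts and -1.99 ± 0.10 for colon. The authors' deposited tables give -1.13 (adjusted p 5.91e-09) and -2.21 (adjusted p 1.54e-51). Cox7a2 had medians of 344, 362 and 360 FPKM in villi, crypts and colon. Cox7a1 thus supplied 48.0% to 58.2% of the pair in vehicle villi (median 53.6%), 28.4% to 46.9% in crypts (42.6%) and 26.1% to 31.8% in colon (29.9%). The lowest crypt value, 28.4%, was vehicle replicate 4, the crypt library with the least enterocyte marker RNA; the part of enterocyte admixture in the crypt values was not tested. In colon vitamin D replicates 1 and 2, the libraries rich in smooth muscle RNA, Cox7a1 had 142 and 199 FPKM, within the 142 to 208 of that group.

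Assembly factors differed among themselves between crypts and villi. On the centred scale 4 of the 6 were positive, with a median over all 6 of 0.51, while complexes I to V had medians between -0.43 and -0.27. Ndufaf3 (-0.31) and Sdhaf2 (-0.32), which attaches flavin to Sdha, were on the side of the subunits. The 4 genes that share only a prefix or act beside the complexes had a median of 0.09, with Atp5sl at -0.29. Ndufaf2, an assembly factor of complex I, had 6.13 to 12.1 FPKM in vehicle villi (median 8.32), 17.6 to 27.4 in crypts (18.5) and 15.5 to 26.0 in colon (21.3). The difference between crypts and villi was 0.62 ± 0.17 without overlap, and 1.24 with an adjusted p of 6.1e-15 in the authors' deposited table. Ndufaf4, another complex I factor, was higher by 0.66 ± 0.17 and Sdhaf1, which helps load iron-sulphur clusters into Sdhb, by 0.65 ± 0.11. The authors' deposited table gives 1.06 (adjusted p 5.4e-22) and 1.15 (adjusted p 1.76e-26) for them. Cox4nb, which encodes a subunit of a membrane protein insertase of the endoplasmic reticulum, was higher by 0.62 ± 0.14. Atp5j, a stalk subunit of the ATP synthase, had the highest difference of all members but the widest error, at 1.11 ± 0.66, and overlapped. Its values in vehicle villi ran from 0.610 to 16.3 FPKM.

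The extremes of the comparisons with villi were shared between complexes. Between colon and villi the lowest centred differences after Cox7a1 were -1.46 ± 0.10 for Uqcrc1, -1.36 ± 0.08 for Sdhd, -1.33 ± 0.09 for Sdhb and -1.24 ± 0.13 for Ndufa4, all without overlap. The highest were 0.84 ± 0.73 for Atp5j, 0.67 ± 0.18 for Ndufaf2, 0.38 ± 0.12 for Atp5g2, 0.34 ± 0.11 for Cox4nb and 0.29 ± 0.20 for Sdhaf1, all with overlap. Between crypts and villi the lowest after Cox7a1 were Ndufa1 (-0.81 ± 0.22), Cox6a1 (-0.63 ± 0.12), Ndufa3 (-0.58) and Sdhb (-0.58 ± 0.12). Cox6a1, the non-muscle isoform of subunit 6a, did not overlap between these tissues, and the authors' deposited table gives -0.56 with an adjusted p of 9.41e-06. Between colon and crypts, Cox7a1 was at -0.83 ± 0.23 and the accessory subunit gene Ndufa7 at 0.27, both with overlap.

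The difference between colon and crypts was related to transcript length among the members. Over the 86 genes its Spearman correlation with the length implied by the deposited values was -0.43, and -0.49 within complex I, against 0.10 over all 9341 genes. In the vitamin D libraries it was -0.44. The shortest 28 members had a median difference of -0.18, the next 29 one of -0.24 and the longest 29 one of -0.46. Over all genes in the same length ranges the medians were -0.17, -0.12 and -0.03. These points share their libraries, so the correlation is a description. Subunit size is tied to role here, since catalytic subunits have long transcripts and small accessory subunits short ones, and length and role cannot be told apart in these genes.

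Other mitochondrial genes gave a scale for these differences. The 17 genes of the tricarboxylic acid cycle had a median of -0.53 between colon and crypts. The libraries of 13 lay wholly lower in colon, beside 15.8% of all genes. The 74 mitochondrial ribosomal protein genes had medians of 0.40 between crypts and villi and -0.39 between colon and crypts, beside -0.32 and -0.28 for the 86 members. Without centring the values between crypts and villi were 0.94 for these genes and 0.23 for the members. For the 79 cytosolic ribosomal protein genes the medians were 1.54 and -0.23. The 11 regulators of mitochondrial biogenesis had medians of 0.46 between crypts and villi (9 of 11 positive), 0.25 between colon and villi (7 positive) and -0.44 between colon and crypts (2 positive). Esrra was the lowest of the list in both comparisons with villi, at -0.88 and -1.39. It was chosen after its values were seen. Esrra, an estrogen-related receptor that acts on respiratory genes, had vehicle medians of 152 FPKM in villi, 121 in crypts and 85.0 in colon. Its vehicle colon libraries, from 73.4 to 99.3 FPKM, lay below all villus libraries and overlapped the crypt range of 83.8 to 170 FPKM.

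At 4 h after the dose of active vitamin D, 1 of these genes passed the test, in 1 tissue. Tested with limma over all genes of a tissue and adjusted by Benjamini-Hochberg at 0.05, 0 of the 86 members were called in villi, where 2.17% of genes rose and 0.299% fell. In crypts 1 rose and 0 fell, beside 1.13% and 0.335% of all genes. In colon 0 were called, beside 0.763% and 0.0607%. Before adjustment, limma p was below 0.05 for 1, 1 and 0 members in villi, crypts and colon. Over all genes tested it was below 0.05 for 1181 of 9706, 1639 of 10733 and 929 of 11540. The authors' deposited tables call 0, 1 and 0, beside 3.6%, 4.28% and 1.64% of all genes in either direction.

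The 1 gene called was Sdhaf1. Its FPKM in vehicle crypts was 35.2, 35.6, 34.3, 48.7, 39.0 and 35.8, and in vitamin D crypts 55.8, 51.2, 47.7, 50.9, 63.9 and 47.1. Of the 6 vitamin D libraries, 4 were above all vehicle libraries and the other 2 were below only vehicle replicate 4. The log2 fold change was 0.47 ± 0.10 (SE; 95% interval 0.24 to 0.69), with an adjusted p of 0.0425 in limma and 0.00324 in the authors' deposited table. The call was close to the threshold and was lost under 15 of 24 alternatives, where the limma adjusted p rose to at most 0.248, while the fold change stayed between 0.41 and 0.54. Without vehicle replicates 5 and 6, the crypt libraries with the most enterocyte RNA, the limma adjusted p was 0.151. In villi the Sdhaf1 medians were 16.7 FPKM with vehicle and 17.4 with vitamin D. In colon the vehicle libraries ranged over 19.2 to 42.3 FPKM (median 30.7) and the vitamin D libraries over 25.2 to 54.6 (36.4), a log2 fold change of 0.31 ± 0.22 with a limma adjusted p of 0.839.

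**Figure D4:**
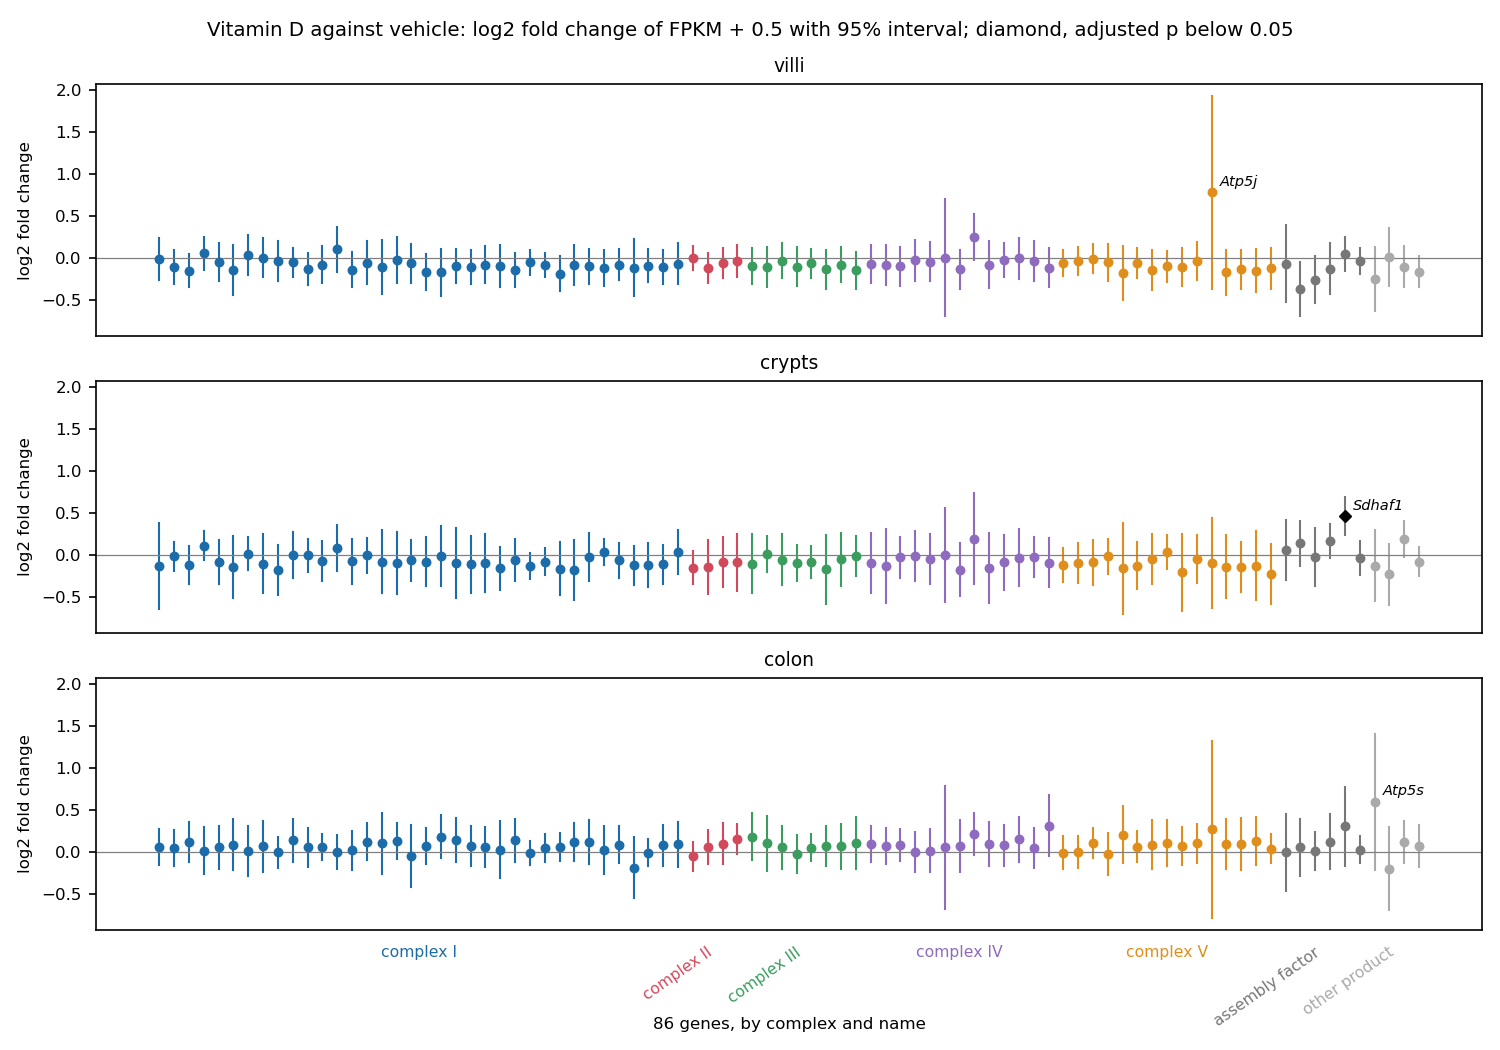
Log2 fold change of FPKM + 0.5 with vitamin D against vehicle (vertical axis) for each of the 86 genes, ordered by complex and name, with 95% intervals from limma, in villi (n = 6 vehicle and 7 vitamin D), crypts (6 and 6) and colon (6 and 7). The diamond marks Sdhaf1 in crypts, the 1 gene with an adjusted p below 0.05; most intervals are narrow and cross 0, and those of Atp5j in villi and colon are the widest.

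For most subunits the intervals bound the response closely. The median distance from the estimate to the end of its 95% interval was 0.23 in villi, 0.29 in crypts and 0.25 in colon on the log2 scale. The whole interval lay within 1 of 0 for 85, 86 and 84 of the 86 members, and within 0.5 for 79, 68 and 78. Over all genes tested it lay within 1 for 90.4%, 89.3% and 88.3%, and the share within 0.5 was not counted. Among 8 catalytic or electron-carrying subunits (Ndufs1, Ndufv1, Sdha, Sdhb, Uqcrc1, Uqcrfs1, Atp5a1 and Atp5b) the estimates were -0.13 to 0.01 in villi, -0.17 to -0.09 in crypts and -0.05 to 0.08 in colon. The widest of these intervals, for the Rieske iron-sulphur protein Uqcrfs1 in crypts, ran from -0.58 to 0.24.

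The estimates leaned together within a tissue although single genes did not pass the test. In villi 75 of 86 were negative (median -0.08, all genes -0.01), in crypts 70 were negative (median -0.08, all genes -0.01), and in colon 74 were positive (median 0.07, all genes 0.00). Complex IV in colon had 13 of 13 positive and complex III in villi 8 of 8 negative. Cytosolic ribosomal protein genes leaned the same way in villi (79 of 79 negative) and colon (78 of 80 positive). In crypts they leaned the other way, with 76 of 80 positive. Of 75 mitochondrial ribosomal protein genes, 71 were negative in villi, 61 positive in colon and 55 positive in crypts. The leanings of the 86 members moved with single libraries. Without vehicle crypt replicates 5 and 6 the crypt median was 0.06 with 0 called, and in villus replicates 1 to 4 of each group, whose sample descriptions give plain names, the villus median was 0.02. Without the smooth muscle rich colon replicates 1 and 2 of the vitamin D group the colon median was 0.05 with 0 called. The mean centred level of the 86 genes was highest in replicates 5 and 6 among crypts, at 4.03 in vehicle replicate 6 and 3.95 in vitamin D replicate 6. In colon it was highest in vitamin D replicate 2 (3.84) and lowest in vehicle replicate 6 (3.21). The part of enterocyte and smooth muscle RNA in these shifts was not tested.

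**Figure D5:**
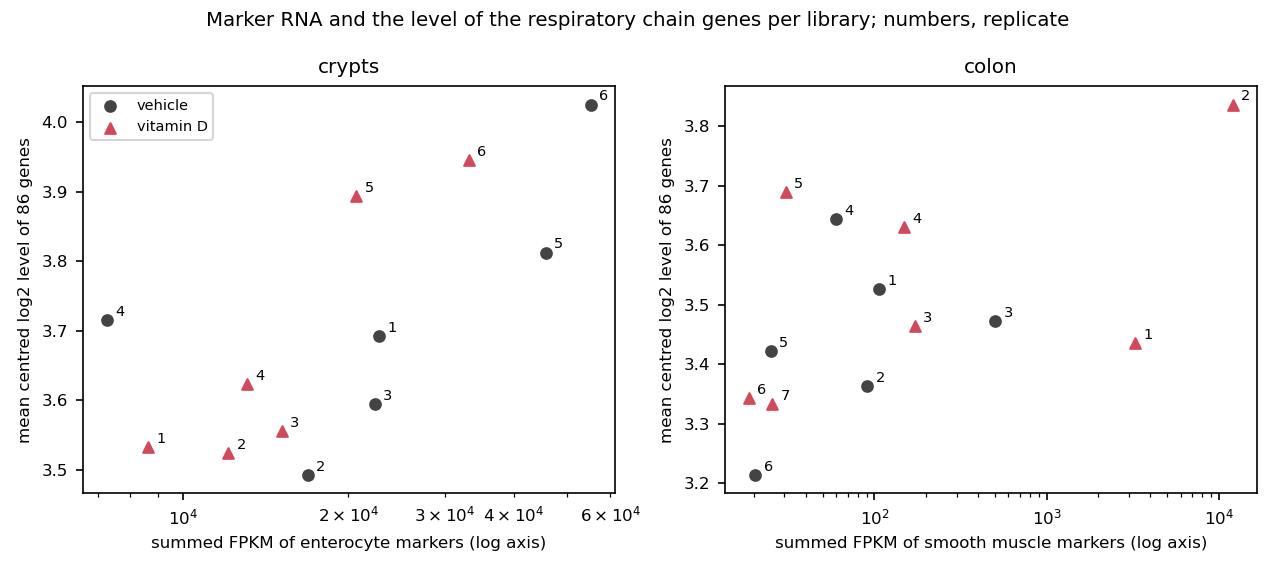
Mean centred log2 level of the 86 genes in each crypt and colon library (vertical axis) against the summed FPKM of 14 enterocyte markers in crypts and of 6 smooth muscle markers in colon (log axes); numbers are replicates, circles vehicle and triangles vitamin D. Vehicle crypt replicates 5 and 6, vitamin D crypt replicate 6 and colon vitamin D replicate 2 combine high marker sums with a high level of the respiratory chain genes. Other libraries do not: vitamin D crypt replicate 5 has a sum of 20688 and a level of 3.89, and vehicle crypt replicate 4 has 7268 and 3.72. Colon vitamin D replicate 1 has a high marker sum (3276) and a level of 3.44, and replicate 5 a low sum (30.6) and a level of 3.69. The highest crypt levels are those of replicates 5 and 6 of both groups, the libraries that are not plain-named.

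Some genes had larger estimates that were not called. Cox7a1 in villi went from a mean of 411 FPKM to 497, and 6 of the 7 treated libraries exceeded every vehicle library while replicate 7, at 319 FPKM, was below all of them. Its log2 fold change was 0.25 ± 0.13 with a limma adjusted p of 0.472; without replicate 7 it was 0.36 with an adjusted p of 0.0520. Ndufaf2 in villi went from 8.73 to 6.64 FPKM, a log2 fold change of -0.36 ± 0.15 with a limma adjusted p of 0.329. Ndufaf3, a complex I assembly factor, had -0.25 ± 0.13 (limma adjusted p 0.485). Atp5j in villi had 0.79 ± 0.53 (limma adjusted p 0.626), and in the plain-named libraries alone the estimate was -0.32. In crypts the members with the largest estimates after Sdhaf1 were Atp5sl (-0.23), Atp5o (-0.22) and Atp5g3 (-0.20 ± 0.21), with limma adjusted p of 0.555, 0.553 and 0.685.

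Colon estimates were the least certain for low genes. Atp5s, which encodes a factor named for the ATP synthase, had 0.60 ± 0.38 (limma adjusted p 0.795), and Atp5j 0.27 ± 0.49 (0.929). Ndufa4 went from a mean of 349 FPKM to 447, and 4 of the 7 treated libraries exceeded every vehicle library. Its highest value, 689 FPKM, was in vitamin D replicate 2. The log2 fold change was 0.32 ± 0.17 with a limma adjusted p of 0.718, and 0.21 with 0.989 without vitamin D replicates 1 and 2.

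The difference of the response between tissues was tested directly in 1 limma fit of all 38 libraries, taken as independent although tissues may share mice. It called 0 of 86 members for villi against crypts, villi against colon or crypts against colon, where 0.0322%, 0.494% and 0.0644% of all genes were called. Before adjustment, limma p in this fit was below 0.05 for 1, 2 and 0 members, a count that was not made over all genes. It differed under other settings, given in the last section. The smallest limma adjusted p was 0.728 for Ndufaf2 between villi and crypts, 0.578 for Atp5s between villi and colon, and 1.00 for Ndufa4 between crypts and colon.

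Among the neighbouring gene lists, vitamin D called 1 gene in limma: Mrps23, a mitochondrial ribosomal protein gene, fell by 0.28 on the log2 scale in villi (adjusted p 0.0403). None of the 17 tricarboxylic acid cycle genes or the 13 of fatty acid oxidation was called in any tissue. Nor was any of the assembly factors and carriers outside the members. In villi, crypts and colon, unadjusted limma p was under 0.05 for 2, 0 and 2 of the 17 and 2, 2 and 0 of the 13. For the assembly factors and carriers it was 6 of 27, 2 of 29 and 0 of 29. For mitochondrial ribosomal protein genes it was 7, 6 and 2 of 75. All genes tested had 1181 of 9706, 1639 of 10733 and 929 of 11540.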

How the data were processed

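Total RNA of 38 libraries was sequenced. The authors deposited FPKM per gene and library in 1 table per tissue. Their comparison tables were deposited with a normalised mean level (signal), log2 fold changes with errors, a test statistic (score) and p-values with adjusted p-values, per the file headers. The genome build mm9 and the tools DESeq2, DESeq 1.28.1 and kallisto 0.45.0 are named in the submitters' processing notes, and the step that made the FPKM is not stated there. The sign of the deposited tissue comparisons was checked against the centred FPKM differences of the vitamin D libraries. Over the shared genes the correlations were 0.992 to 0.995.

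In each tissue, genes that reached 1 FPKM in 6 libraries were fitted with limma 3.58.1 (R 4.3.3; lmFit, eBayes with trend) after log2(FPKM + 0.5), with Benjamini-Hochberg adjustment over all genes tested and a threshold of 0.05. Fold changes are on the log2(FPKM + 0.5) scale, which understates changes of low genes. The scripts were tested on simulated data. Tissue differences were centred per library and not tested. Depth came from the step size of low values; 78.7% to 91.6% of them per library lay within 0.05 of a whole read, so no count test was run. Transcript length was taken as the deposited mean level over mean FPKM. No unmapped columns were found (0). Plain-named libraries are replicates 1 to 4 of each group, whose names in the sample descriptions have no hyphen or number prefix; the other descriptions give hyphenated or number-prefixed names. No 2 libraries of a group held identical values.

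The members, gene lists and tests were chosen with earlier results of these data known. Named genes are the called members, the 4 with the largest fold change per tissue, and the 5 with the largest centred difference in each direction per pair of tissues; others were named for their role in a complex. Replicate numbers were not shown to pair the libraries. Same-number correlations of deviations were 0.102 to 0.465 in villi and 0.119 to 0.545 in crypts. The same number was the best partner for some replicates, such as villus replicate 4 (0.444), but not for others. Vehicle villus replicate 1 had 0.128, against 0.411 with vitamin D replicate 2. Vehicle crypt replicate 5 had 0.354, against 0.624 with vitamin D replicate 6. In colon 3 of 6 same-number correlations were under 0.1.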

Additional observations from a re-analysis of the deposited data

Results flagged for a closer look

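In 11 of 168 groups examined, 1 library stood apart from the other libraries of its group by Dixon's gap criterion at the 95% level, which chance alone meets in about 1 of 20 groups. Colon vitamin D replicate 2, the library with the most smooth muscle RNA, had 2447 FPKM of Cox8a (the others 1568 to 1928) and 1397 FPKM of Cox4i1 (967 to 1137). Colon vitamin D replicate 5 had 261 FPKM of Sdhd (194 to 214) and 534 FPKM of Atp5g1 (329 to 402). In vehicle colon, replicate 4 had 1331 FPKM of Atp5b (1051 to 1155) and replicate 6 had 360 FPKM of Atp5g2 (494 to 547).

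Vehicle crypt replicate 4, the crypt library with the least enterocyte RNA, had 48.7 FPKM of Sdhaf1 (34.3 to 39.0) and 27.4 FPKM of Ndufaf2 (17.6 to 20.1). Crypt vitamin D replicate 5 had 677 FPKM of Atp5g2 (513 to 574). Vehicle villus replicate 5, whose mean level over the 86 genes was the highest of the villus libraries, had 1694 FPKM of Cox8a (1200 to 1362) and 490 FPKM of Cox7a2 (310 to 362).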

How the results depend on the processing

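Counts of called members in villi and colon and for the differences of response stayed at 0 under all alternatives run. Unadjusted limma p for the differences of response was below 0.05 for more members in some settings. For villi against crypts, villi against colon and crypts against colon the counts were 3, 11 and 6 with name style as a covariate. They were 2, 12 and 15 with the replicate block and 1, 3 and 3 in the plain-named libraries. In crypts the count of members called higher was 0 instead of 1 with no filter, with median centring, without the variance trend, in the plain-named libraries and without vehicle replicates 5 and 6, and 0 to 2 when 1 library was left out; the 2 came without vehicle crypt replicate 4 and were Sdhaf1 and Ndufaf4. With the replicate block crypts kept 1 call and villi and colon 0, with median fold changes of -0.08, -0.05 and 0.11, and the block changed no other call.

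Median tissue differences against villi depended on scaling. Without centring they were 0.23 for crypts and 0.0101 for colon, and with upper quartile scaling -0.10 and -0.28. For colon minus villi the median was -0.35 over genes of 5 FPKM or more, -0.33 in vitamin D libraries and -0.35 in plain-named libraries. Colon minus crypts kept its direction under its 21 alternatives, but moved from -0.28 to -0.12 in both the vitamin D and the plain-named libraries and to -0.19 without vehicle crypt replicates 5 and 6. A 2-fold minimum left 5, 12 and 1 called members in the authors' deposited tables for crypts against villi, colon against villi and colon against crypts. Direction turned for Atp5j in villi (-0.32, plain-named libraries), Atp5g3 in crypts (0.0584, without vehicle replicates 5 and 6) and Atp5j in colon (-0.0679 to 0.63 when 1 library was left out). The cause was not tested. Leaving out crypt replicates 5 and 6 or colon replicates 1 and 2 was chosen after seeing the data. FPKM gives no counts, so precision rests on the 6 or 7 libraries of a group.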
